A study of Mus musculus with 6 samples.

Results

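The 7 genes described here, all tied to the let-7 microRNAs, were followed in irradiated mouse fibroblasts treated with exosomes from plasma: Hmga1, Hmga2, Igf2bp1, Igf2bp2, Igf2bp3, Lin28a and Lin28b. They were taken by gene symbol and make up 7 of the 21878 genes in the deposited table. The set was chosen by the measured FPKM of Hmga2 in this same comparison, 50.4% lower with exosomes, so the changes of the 7 genes are given as a description with no test and support nothing by themselves. All cells were of the NIH3T3 line, fibroblasts immortalised from mouse embryos, all had a radiation injury, and the labelled time point was 72 h. One group of 3 RNA-seq libraries came from cells given plasma exosomes, vesicles that cells release, and the other group of 3 libraries from cells given phosphate-buffered saline (PBS). An unirradiated group was not analysed here, and the labels give no radiation dose. Separate cultures are not stated either, so the spread behind each p-value is that of libraries and may be technical.

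let-7 is a family of small RNAs that pair through a short seed with the 3′ untranslated regions (3′ UTRs) of messenger RNAs and lower their stability and translation. It is scarce in stem cells and embryonic tissue and rises as cells differentiate. LIN28A and LIN28B bind let-7 precursors and block their maturation. HMGA proteins are small architectural factors that bind AT-rich DNA, and Hmga2, a gene of embryonic growth, is among the best known let-7 targets. The IGF2BP proteins bind messenger RNAs in the cytoplasm, among them Igf2 and Myc, and affect their stability, localisation and translation.

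In the GRCm38 build Hmga2 (Entrez 15364) spans chr10:120361275-120476469 and Lin28b (380669) chr10:45376620-45486395, both on the minus strand. Hmga1 (15361) lies on the plus strand at chr17:27556497-27563674. Igf2bp1 (140486) lies at chr11:95957163-96005940, Igf2bp2 (319765) at chr16:22059009-22163299, Igf2bp3 (140488) at chr6:49085223-49214957 and Lin28a (83557) at chr4:134003330-134018841, all on the minus strand. The sequences below show the pairing that unites the 7 genes. In RefSeq (GRCm38.p6) 13 entries, with 11 different names, hold a mature microRNA whose bases 2 to 8 read GAGGUAG. The ones printed here differ only outside that seed, which is in capitals.
let-7a-5p: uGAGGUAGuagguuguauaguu
let-7d-5p: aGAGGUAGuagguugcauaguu
let-7i-5p: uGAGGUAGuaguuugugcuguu
miR-98-5p: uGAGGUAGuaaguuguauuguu

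The match to this seed is CTACCTC on the transcript strand. It was searched in the longest 3′ UTR of each protein-coding gene of the GENCODE M21 basic set (GRCm38) and was present in 8.68% of 21648 genes, and in 10.3% of the 10177 tested genes with such a UTR. All 7 genes held at least 1 match. Hmga2, Igf2bp1 and Lin28b held 4 each, a number reached or exceeded in 12 of the 21648 genes (0.0554%). Lin28a held 2, and Hmga1, Igf2bp2 and Igf2bp3 held 1 each. As the genes were grouped by their tie to let-7, such matches come with the grouping, and nothing is read from their number. The 6-letter core TACCTC, which every CTACCTC contains, occurred 7 times in Hmga2, 6 times in Igf2bp1, 5 times in Lin28b and 1 or 2 times in the others. The Hmga2 matches are shown because this gene changed most, in windows of 30 bases of the transcript strand with the match in capitals.
Hmga2 match 1 (chr10:120364217-120364246, minus strand): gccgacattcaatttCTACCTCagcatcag
Hmga2 match 2 (chr10:120362980-120363009, minus strand): ccccactcctcaataCTACCTCtgaatgct
Hmga2 match 3 (chr10:120362542-120362571, minus strand): ctgatttgcaaggaaCTACCTCcacacttc
Hmga2 match 4 (chr10:120361684-120361713, minus strand): aatcaaaacacactaCTACCTCttaagtcc

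The first Hmga2 match lies 58 bases into a UTR of 3014 bases and is followed by an A, which is known to strengthen targeting, and the other 3 are not. The matches of the other 4 genes detected above 1 FPKM (fragments scaled by transcript length and library size) are shown for comparison.
Hmga1 match 1 (chr17:27563277-27563306, plus strand): tcctctgttcacaaaCTACCTCtggacggt
Igf2bp1 match 1 (chr11:95961771-95961800, minus strand): gctgtgcgaagtaaaCTACCTCaaggtgtg
Igf2bp1 match 2 (chr11:95959350-95959379, minus strand): cagcagtgctattaaCTACCTCagccccag
Igf2bp1 match 3 (chr11:95958756-95958785, minus strand): gtataaatggatgaaCTACCTCagtcctca
Igf2bp1 match 4 (chr11:95958133-95958162, minus strand): acttttggttttaatCTACCTCttagcaaa
Igf2bp2 match 1 (chr16:22059466-22059495, minus strand): acacacaaataaaagCTACCTCaggtgttt
Igf2bp3 match 1 (chr6:49086780-49086809, minus strand): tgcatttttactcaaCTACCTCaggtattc

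In Igf2bp1 the matches were spread from base 1715 to base 5353 of a UTR of 6337 bases, and 3 of the 4 were followed by an A. The single matches of Igf2bp2 and Igf2bp3 were followed by an A and that of Hmga1 was not. A seed match is a description of these letters, and let-7 itself was not analysed here.

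**Figure D1:**
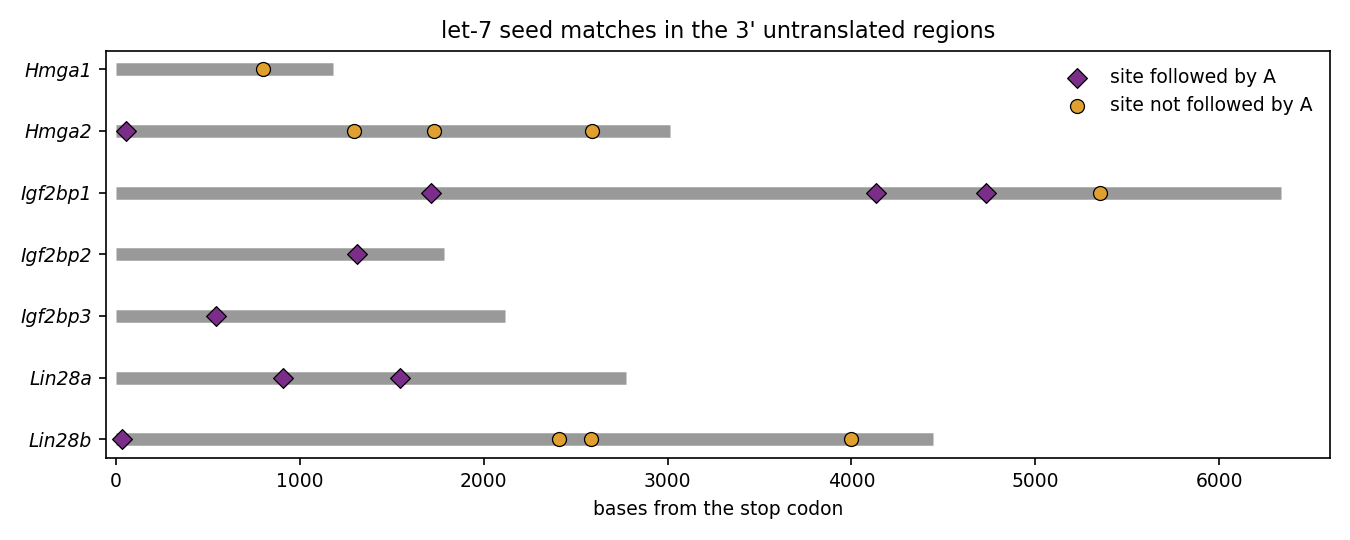
3′ UTRs of the 7 genes drawn to scale from the stop codon (x axis, bases), with matches to the let-7 seed followed by an A as diamonds and the others as circles. Hmga2, Igf2bp1 and Lin28b carry 4 matches each, and the first matches of Hmga2 and Lin28b lie 58 and 36 bases from the stop codon.

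Library depth was estimated at 19200000 to 22000000 counted reads with exosomes and 18800000 to 20100000 with PBS. Levels are FPKM, read as such from the authors' tables. Log2 changes are exosomes over PBS on log2(FPKM + 1), a scale that understates the change of low genes, with standard errors (SE) from limma fitted on all 10274 genes that reached 1 FPKM in at least 3 libraries. Fibroblast markers (7 genes, such as Col1a2 and Thy1) summed to 5760 to 6100 FPKM with exosomes and 4940 to 5060 with PBS. Col1a2 was the highest of them, at up to 1590 FPKM. The sum does not stand for each marker, since Pdgfrb and S100a4 were past the threshold in the lowered direction. Leukocyte markers summed to 0.388 to 0.688 FPKM with exosomes and 1.08 to 3.37 with PBS over 7 genes with Csf1r the highest at up to 3.22 FPKM, and Cd3e was at 0. Platelet markers (5 genes) summed to 8.29 to 11.1 FPKM with exosomes and 6.35 to 8.9 with PBS, with Gp9 at 0. Their part in the results below was not tested. In bulk RNA, fewer cells of a kind and less RNA per cell cannot be told apart.

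Of the 7 genes 5 passed the filter on low values. Among these 5, 4 were past the adjusted p threshold of 0.05 (limma) in the lowered direction and 0 in the raised one (0 also at an unadjusted p under 0.05), against a background of 18.4% of all tested genes lowered and 25.4% raised. As the comparison was used to choose the genes, nothing is read from that count. The exosome and PBS values did not overlap in the same 4 genes, all lower with exosomes. Of all tested genes the groups stood apart in 55.6%, with exosomes lower in 23.5% and higher in 32%. The authors' deposited table calls 13.5% of 15844 genes lowered and 25.9% in either direction, with the same 4 genes among those lowered. The median log2 change of the 5 genes was −0.23 and that of all tested genes 0.04.

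Hmga2 was lower by the widest margin. Its level was 38.3, 47.5 and 49.9 FPKM in exosome replicates 1 to 3, against 99.4, 87.6 and 86.4 FPKM in PBS replicates 1 to 3. Every exosome library lay far below every PBS library, and exosome replicate 1 was the lowest of all. The means were 45.2 ± 6.12 FPKM with exosomes and 91.1 ± 7.15 with PBS (SD, n = 3 each), a log2 change of −1.001 ± 0.0966 (SE). The authors' deposited table, built from counts, gives mean normalized counts of 4233 with exosomes and 8861 with PBS, a fold of 0.478. By log2 change Hmga2 ranked 75 from the lowest of 10274 genes, and a log2 change of −1 or lower was found in 0.73% of them. In level, 1095 tested genes lay above Hmga2 with exosomes and 488 with PBS.

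Hmga1, a relative of Hmga2, was lower by a smaller amount. It was at 68.5, 68.7 and 69.3 FPKM in exosome replicates 1 to 3, against 101.8, 88.2 and 88.9 FPKM in PBS replicates 1 to 3. The exosome libraries were nearly identical, and PBS replicate 1 stood above the other PBS libraries. Means were 68.8 ± 0.39 FPKM with exosomes and 93.0 ± 7.64 with PBS (SD, n = 3 each), a log2 change of −0.43 ± 0.06 (SE). In the authors' deposited table the fold was 0.692. Where reads of Hmga1 map to more than 1 place in the genome its level is uncertain, since how such reads were counted is not stated.

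Hmga2 was also lower relative to Hmga1. The ratio of Hmga2 to Hmga1 was 0.559, 0.691 and 0.721 in exosome replicates 1 to 3, against 0.976, 0.993 and 0.972 in PBS replicates 1 to 3. In PBS libraries the genes were thus at nearly equal levels per length, and in each exosome library Hmga1 was the higher. These ratios come from the comparison that chose the genes and carry no test.

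**Figure D2:**
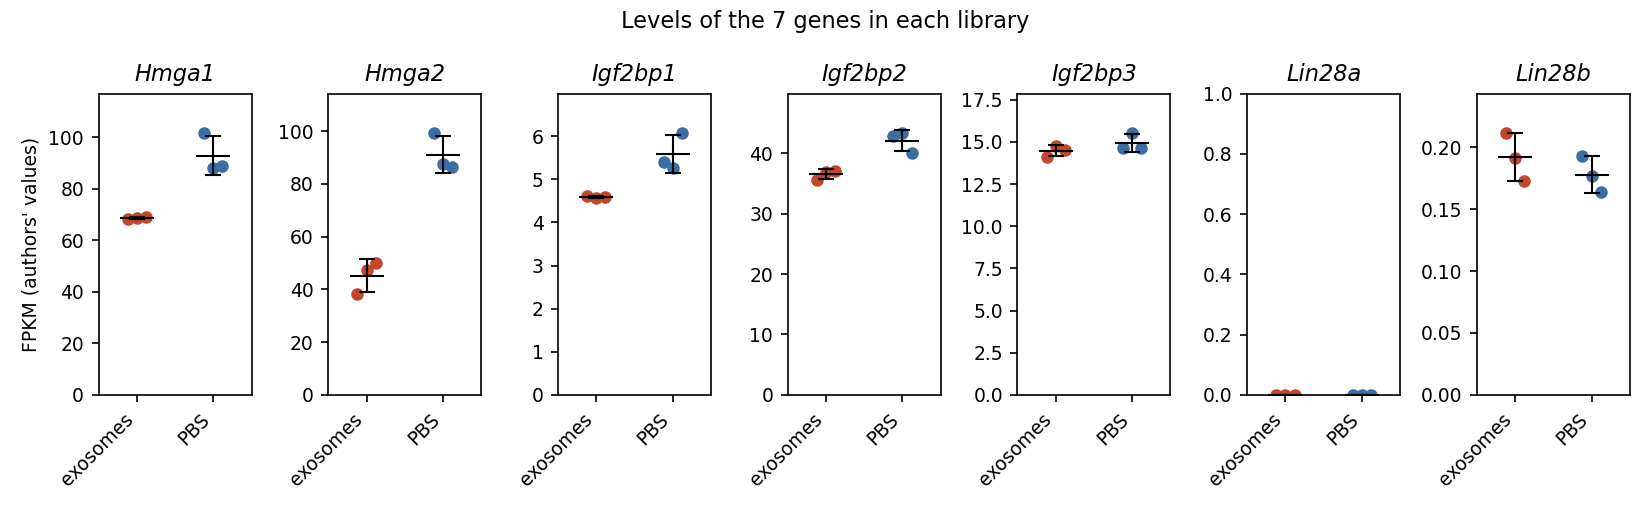
FPKM (y axis, from 0, scaled per gene) of each of the 7 genes in the 3 exosome and 3 PBS libraries, with points for libraries and bars for mean and SD. Hmga2 shows 38.3 to 49.9 FPKM with exosomes and 86.4 to 99.4 with PBS, the groups also stand apart for Hmga1, Igf2bp1 and Igf2bp2, and they overlap for Igf2bp3 and Lin28b.

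Among the IGF2BP genes, Igf2bp2 was the most abundant. In mouse embryos and myoblasts its transcription has been reported to depend on HMGA2. Igf2bp2 was at 35.6, 37.0 and 37.0 FPKM in exosome replicates 1 to 3, against 42.8, 43.4 and 40.1 FPKM in PBS replicates 1 to 3. No exosome library reached the lowest PBS library. The means were 36.5 ± 0.811 FPKM with exosomes and 42.1 ± 1.74 with PBS (SD, n = 3 each), a log2 change of −0.20 ± 0.05 (SE) and 13.2% lower in mean FPKM.

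Igf2bp1, known for binding Actb and Myc messenger RNA, was the lowest of the paralogs. It stood at 4.61, 4.58 and 4.58 FPKM in exosome replicates 1 to 3, against 5.41, 5.25 and 6.08 FPKM in PBS replicates 1 to 3. The exosome libraries were close to each other and below all PBS libraries. Its log2 change was −0.23 ± 0.06 (SE), with means of 4.59 ± 0.0184 FPKM with exosomes and 5.58 ± 0.438 with PBS (SD, n = 3 each).

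Igf2bp3, an oncofetal paralog, showed little difference. Its libraries held 14.1, 14.8 and 14.5 FPKM in exosome replicates 1 to 3, against 14.6, 15.5 and 14.6 FPKM in PBS replicates 1 to 3. The groups overlapped. The means were 14.5 ± 0.328 FPKM with exosomes and 14.9 ± 0.519 with PBS (SD, n = 3 each), a log2 change of −0.04 ± 0.05 (SE). In the authors' deposited table the folds were 0.791 for Igf2bp1, 0.831 for Igf2bp2 and 0.950 for Igf2bp3.

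Summed over the paralogs, IGF2BP transcripts stood at 54.3, 56.3 and 56.1 FPKM in exosome replicates 1 to 3, against 62.8, 64.1 and 60.8 FPKM in PBS replicates 1 to 3. Igf2bp2 took 65.7% ± 0.221 of the sum with exosomes and 67.2% ± 1.14 with PBS (SD, n = 3 each). The share of Igf2bp3 was 26.03% ± 0.175 with exosomes and 23.9% ± 0.503 with PBS, and that of Igf2bp1 8.26% ± 0.199 with exosomes and 8.93% ± 0.945 with PBS. The share of Igf2bp3 did not overlap between the groups, at 25.88% to 26.22% with exosomes and 23.29% to 24.22% with PBS, and the other shares did. In FPKM the groups stood apart in 55.6% of all tested genes. A share also rises when the other paralogs fall, and theirs were changes in the comparison that chose the genes. Nothing is thus read from the shares.

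**Figure D3:**
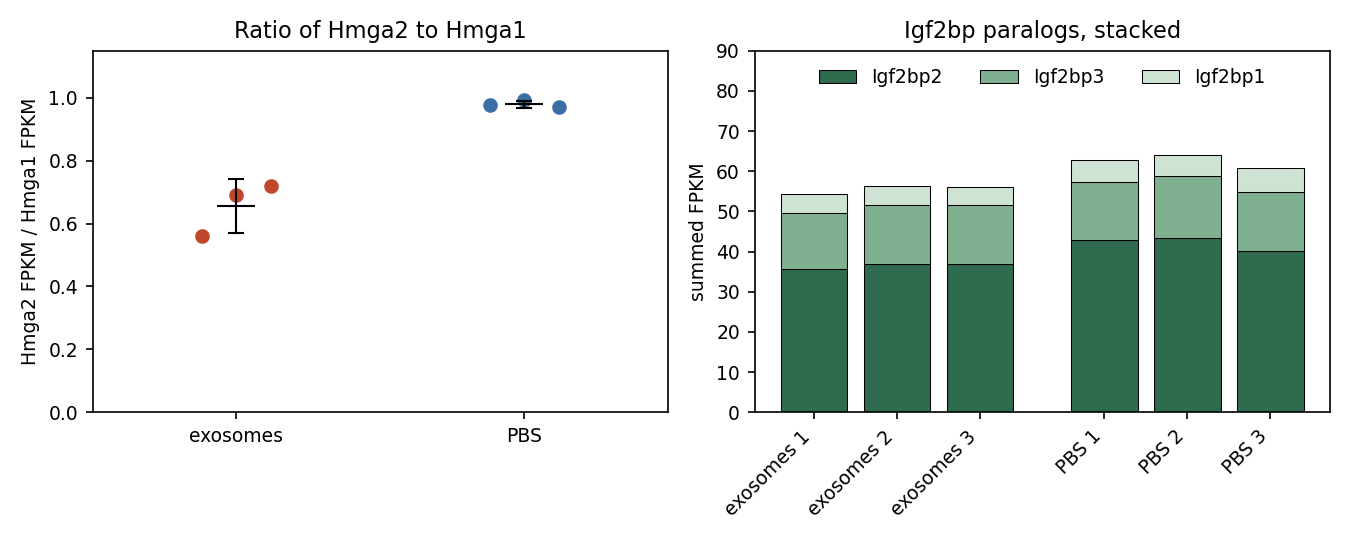
Left, the ratio of Hmga2 to Hmga1 FPKM per library (points) with mean and SD, at 0.559 to 0.721 with exosomes and 0.972 to 0.993 with PBS. Right, stacked FPKM of Igf2bp2, Igf2bp3 and Igf2bp1 in each library, with Igf2bp2 making up 65.5% to 66.0% of the exosome bars and 65.9% to 68.1% of the PBS bars.

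The LIN28 genes, the inhibitors of let-7 maturation, were at or near 0. Lin28a was listed at 0 FPKM in all 6 libraries, and the authors' deposited mean counts for it were also 0 in both groups. No read of it was thus counted. For counting error only, a count of 0 leaves room for an expected number of up to 3 reads per library. That is 0.136 to 0.156 RPM (reads scaled to library size) with exosomes and 0.149 to 0.16 RPM with PBS. Lin28b was at 0.212, 0.191 and 0.173 FPKM in exosome replicates 1 to 3, against 0.193, 0.177 and 0.164 FPKM in PBS replicates 1 to 3. These values overlapped, and Lin28b was left out of the test by the filter. The authors' deposited table gives mean normalized counts of 34.5 with exosomes and 32.6 with PBS for it, a fold of 1.06. Markers of pluripotent cells, in which Lin28a is abundant, were also near 0, with 3 of 5 (Sox2, Zfp42 and Dppa5a) at 0 in every library and summed levels of 0.138 to 0.228 FPKM with exosomes and 0.0291 to 0.0982 with PBS.

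Ordered by level per length, the genes ran Hmga1, Hmga2, Igf2bp2, Igf2bp3, Igf2bp1, Lin28b and Lin28a in both groups. With exosomes the libraries of each gene lay wholly above those of the next. With PBS the ranges of Hmga1 and Hmga2 overlapped, although Hmga1 was the higher within each of the 3 libraries, and the other neighbours were apart. Genes on the opposite strand overlap exons of Hmga2 (1700006J14Rik), Hmga1 (Gm49774 and the protein-coding AI413582), Igf2bp1 (Gm29202), Igf2bp3 (the protein-coding Malsu1) and Lin28a (Gm13061) in GENCODE. The kit marks strand, but no source says that counting used it, so reads of these genes cannot be told apart from those of the genes they overlap. AI413582 was at 5.78 ± 1.75 FPKM with exosomes and 9.54 ± 2.06 with PBS (SD, n = 3 each; log2 change −0.65 ± 0.22 SE, limma adjusted p = 0.051), and Malsu1 was below the filter at 0.755 to 1.06 FPKM with exosomes and 0.742 to 1.05 with PBS.

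Across tested genes, the change was described by the number of let-7 seed matches. Of 9128 genes with no match 18.3% were lowered and 25.7% raised, with a median log2 change of 0.04. Among 920 genes with 1 match 19.5% were lowered and 24.0% raised, with a median of 0.02. For 109 genes with 2 matches the shares were 22.9% lowered and 13.8% raised, with a median of −0.03. In the 20 genes with 3 or more matches 8 were lowered and 0 raised (3 raised at an unadjusted limma p under 0.05), and the median was 0.01. These 20 include Hmga2 and Igf2bp1, both among the 8 lowered and both of the set chosen on this comparison, so nothing is read from that count. Also among the 8 are D10Wsu102e and D1Ertd622e, which had the longest UTRs of the 20, at 122583 and 39397 bases. Next in length was Zbtb37, at 16999 bases, which did not pass. Whether UTRs of such length are real was not tested. UTR length moved with the number of matches, with medians of 1102 bases at no match, 2175 at 1, 3475 at 2 and 4676 at 3 or more, and its part was not tested. In the upper tertile of UTR length, 22.6% of 647 genes with a match and 20.3% of 2744 without one were lowered, with medians of −0.01 and 0.01. In the middle tertile the lowered shares were 17.0% of 311 with a match and 18.8% of 3083 without one, and in the lower tertile 14.3% of 91 with a match and 16.1% of 3301 without one.

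The genes with 3 or more matches were spread. Besides Hmga2, the lowest was Slc22a23, a member of a transporter family, at 5.92 FPKM with exosomes and 11.75 with PBS, a log2 change of −0.88 ± 0.06. Nr6a1, an orphan nuclear receptor of germ cells and embryos and a known let-7 target with 8 matches, stood at 1.67 ± 0.287 FPKM with exosomes and 1.43 ± 0.179 with PBS (SD, n = 3 each), a change of 0.14 ± 0.09 (limma adjusted p = 0.262). Nudt12, with 7 matches, was at 3.16 FPKM with exosomes and 2.70 with PBS, a change of 0.17 ± 0.06 (limma adjusted p = 0.0544). These 3 genes were singled out after their values were seen.

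**Figure D4:**
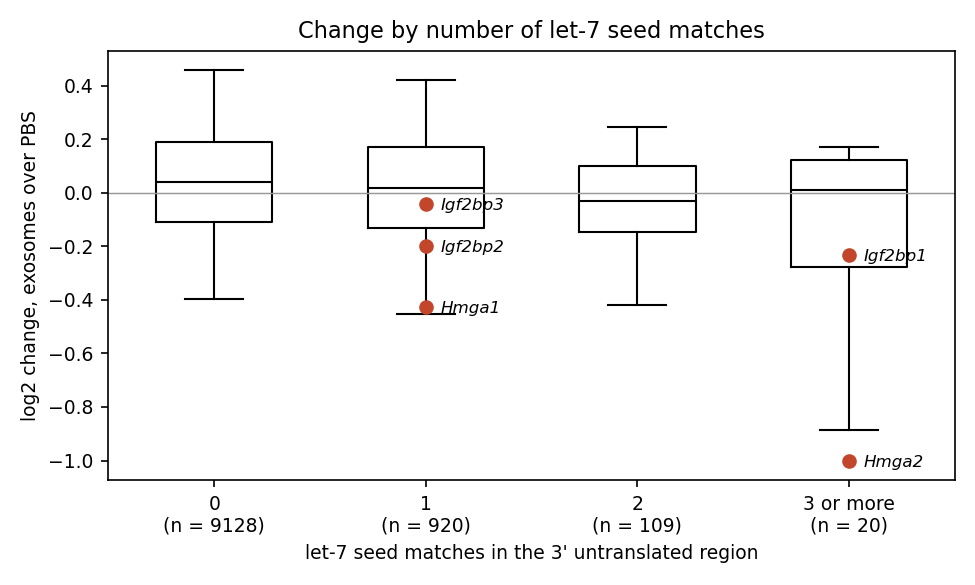
Log2 change of exosomes over PBS (y axis) for tested genes by number of let-7 seed matches in the 3′ UTR (x axis, with the number of genes). Boxes span quartiles with the median, whiskers the 5th to 95th percentile, and red points are the 5 tested genes of the set, of which Hmga2 lies at −1.001 and Igf2bp3 at −0.04.

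Other known let-7 targets moved in part. From a list of 36, 31 were tested, of which 10 fell, 1 rose and 20 did not pass. Their median log2 change was −0.07, beside 0.04 over all tested genes. Of all tested genes 18.4% were lowered and 25.4% raised, or 43.8% in either direction. Myc, a growth-promoting transcription factor, fell to 23.1 ± 0.455 FPKM with exosomes, against 34.9 ± 2.62 with PBS (SD, n = 3 each; log2 change −0.57 ± 0.06 SE, limma adjusted p = 7.83e-05). Mapk6, an atypical MAP kinase, fell to 31.6 ± 1.49 FPKM with exosomes, against 41.1 ± 1.42 with PBS (−0.37 ± 0.05, limma adjusted p = 0.000411). The kinase gene Map4k4 stood at 42.3 ± 1.37 FPKM with exosomes and 53.6 ± 2.92 with PBS (−0.34 ± 0.05, limma adjusted p = 0.000803).

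The G1 kinase gene Cdk6 fell to 4.495 ± 0.265 FPKM with exosomes, against 5.81 ± 0.337 with PBS (−0.31 ± 0.06, limma adjusted p = 0.00391), and the G1 cyclin gene Ccnd1 had a log2 change of −0.36 ± 0.07 (limma adjusted p = 0.00252). Ccnd2, another G1 cyclin gene, was at 46.9 ± 1.69 FPKM with exosomes and 45.3 ± 1.14 with PBS (0.05 ± 0.045, limma adjusted p = 0.387). Igf1r, the receptor of insulin-like growth factors, stood at 13.3 ± 0.490 FPKM with exosomes and 13.7 ± 0.659 with PBS (−0.04 ± 0.05, limma adjusted p = 0.556). The gene that rose was Pbx3, a homeodomain factor named after its value was seen, at 6.64 ± 0.432 FPKM with exosomes and 5.29 ± 0.218 with PBS (0.28 ± 0.06, limma adjusted p = 0.0053). Of the 21 tested members with a seed match in the UTR used here 6 fell and 1 rose, and of the 10 without one 4 fell and 0 rose, with Myc, Ccnd1 and Cdk6 among those 4. Without PBS replicate 2, 2 members of the list rose.

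Genes that make, trim or use let-7 moved in both directions. Of 24 listed 22 were tested, of which 6 fell, 3 rose and 13 did not pass, with a median of −0.01, beside 18.4% lowered and 25.4% raised among all tested genes. Xpo5, which exports microRNA precursors from the nucleus, fell to 24.5 ± 1.68 FPKM with exosomes, against 29.8 ± 0.452 with PBS (−0.27 ± 0.05, limma adjusted p = 0.00341). Ago3, an Argonaute protein, fell to 3.12 ± 0.350 FPKM with exosomes, against 4.26 ± 0.446 with PBS (−0.35 ± 0.08, limma adjusted p = 0.00841). Prkra, a partner of Dicer, rose to 8.60 ± 0.800 FPKM with exosomes, against 6.53 ± 0.489 with PBS (0.35 ± 0.07, limma adjusted p = 0.0048).

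Other steps of let-7 handling showed smaller differences. Dicer1, which cuts the precursor, was at 7.34 ± 0.423 FPKM with exosomes and 7.46 ± 0.115 with PBS (−0.02 ± 0.06, limma adjusted p = 0.752). Dis3l2, the exonuclease that degrades let-7 precursors after LIN28-guided tailing, was at 5.17 ± 0.328 FPKM with exosomes and 4.75 ± 0.339 with PBS (0.10 ± 0.07, limma adjusted p = 0.242). Trim71, a stem cell RNA-binding protein and let-7 target, was below the filter, at 0.0246 to 0.0463 FPKM with exosomes and 0.0129 to 0.175 with PBS. Syncrip, an RNA-binding protein, and the helicase gene Ddx17 passed at −0.19 ± 0.06 (limma adjusted p = 0.0222) and 0.15 ± 0.04 (limma adjusted p = 0.022). The Syncrip call ended without exosome replicate 1 (limma adjusted p = 0.0753), exosome replicate 3 (0.0532) or PBS replicate 1 (0.0858), and that of Ddx17 in 7 of 14 other settings, among them median of ratios scaling (0.052). The nuclease gene Drosha, the other gene that rose and named after its value was seen, had a change of 0.13 ± 0.04 (limma adjusted p = 0.0418) that failed the threshold without any 1 library (0.0658 to 0.109). The count of genes that fell was 2 without exosome replicate 1 and 3 without exosome replicate 3 or PBS replicate 1, and the count that rose was 1 without exosome replicate 2, PBS replicate 1 or PBS replicate 3.

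**Figure D5:**
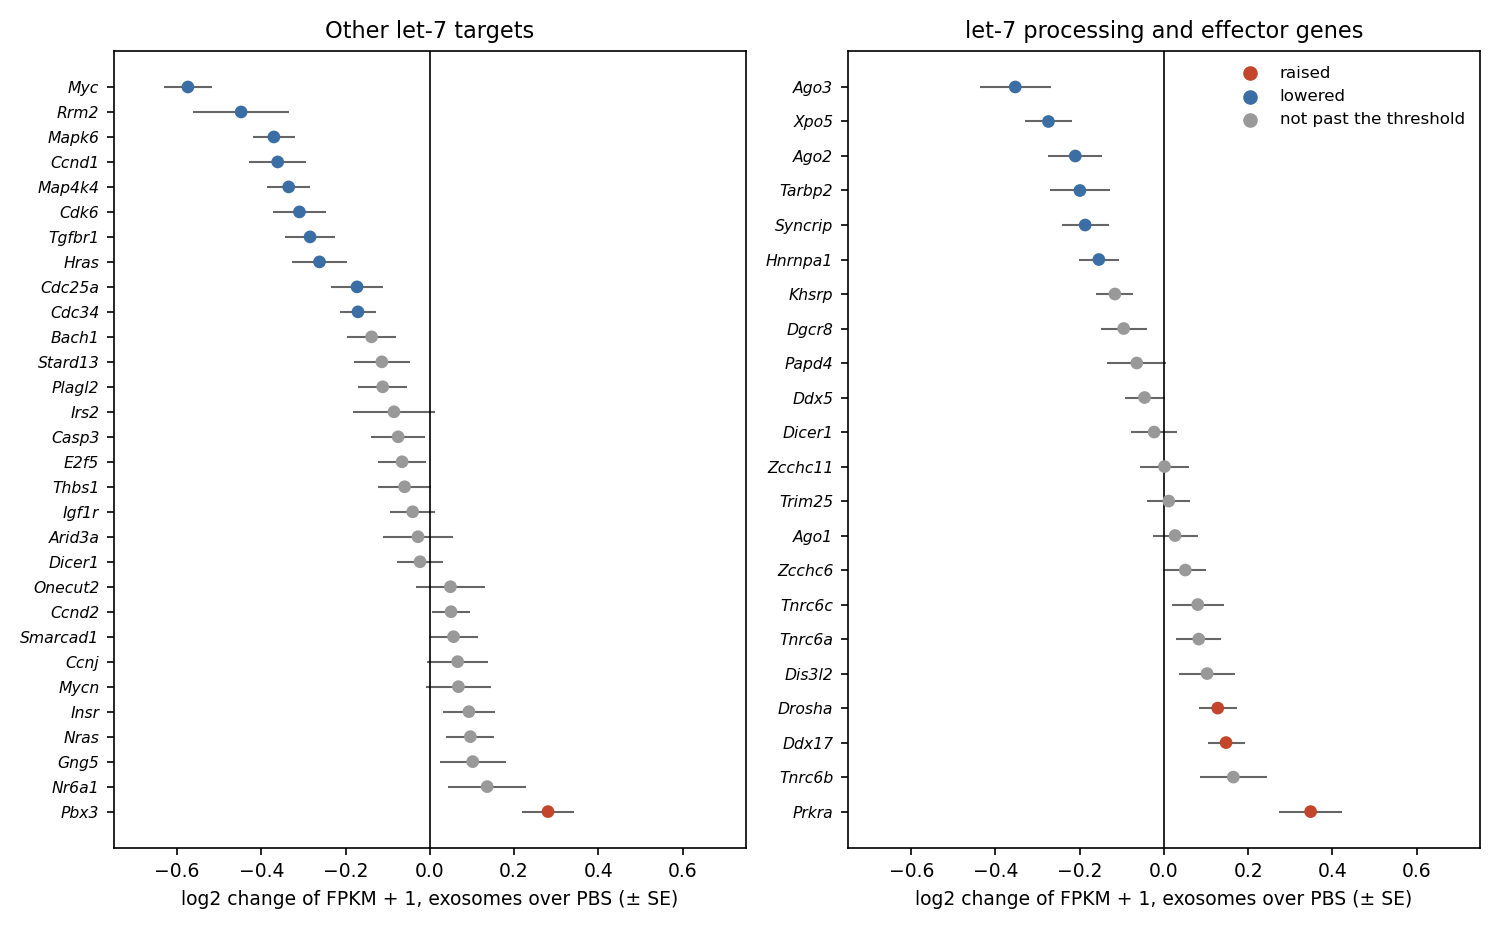
Log2 change of exosomes over PBS (x axis, on log2(FPKM + 1)) with SE for tested genes of the let-7 target list (left, 30 of 31 genes drawn) and of the let-7 processing and effector list (right, 22 genes), coloured by call at a limma adjusted p of 0.05. Myc lies lowest at −0.57 on the left, and Ago3 at −0.35 and Prkra at 0.35 bound the right panel.

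Messenger RNAs known to be bound by IGF2BP proteins moved in both directions. Of 12 listed, 9 were tested, of which 3 fell, 4 rose and 2 did not pass, with a median of 0.18, beside 18.4% lowered and 25.4% raised among all tested genes. H19 was not analysed here. Cd44, a hyaluronan receptor, fell to 17.4 ± 0.383 FPKM with exosomes, against 26.8 ± 1.04 with PBS (−0.59 ± 0.05, limma adjusted p = 1.83e-05). Myc, described above, and the actin bundler gene Fscn1 (−0.18 ± 0.04, limma adjusted p = 0.0101) were the others that fell. Lamb2, a laminin chain, rose to 49.9 ± 0.871 FPKM with exosomes, against 40.9 ± 1.28 with PBS (0.28 ± 0.04, limma adjusted p = 0.00082). Btrc and Ctnnb1, of Wnt signalling and named after their values were seen, rose by 0.20 ± 0.06 and 0.18 ± 0.05. Those calls ended without exosome replicate 1, exosome replicate 2 or PBS replicate 1 for Btrc (limma adjusted p = 0.053, 0.0605 and 0.0564), and without exosome replicate 3 or PBS replicate 3 for Ctnnb1 (limma adjusted p = 0.0858 and 0.0769). Both also ended with the replicate number as a block (0.0509 for Btrc and 0.0643 for Ctnnb1). Neither gene was past 0.05 in the authors' deposited table (adjusted p = 0.0741 for Btrc and 0.08375 for Ctnnb1). The Ctnnb1 call ended without the filter on low values too (limma adjusted p = 0.05025). Igf2, the namesake growth factor gene, was at 237.7, 270.0 and 305.2 FPKM in exosome replicates 1 to 3, against 217.7, 297.3 and 189.5 FPKM in PBS replicates 1 to 3. Its groups overlapped (0.22 ± 0.17, limma adjusted p = 0.309), and without PBS replicate 2 the change passed (0.41, limma adjusted p = 0.0148).

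IGF2BP proteins also read N6-methyladenosine (m6A), a mark on messenger RNA. Of 14 other genes that write, erase or read it, all tested, 2 fell, 2 rose and 10 did not pass (median −0.06), beside 43.8% of all tested genes called in either direction. Alkbh5, a demethylase, fell to 25.7 ± 0.269 FPKM with exosomes, against 34.0 ± 0.689 with PBS (−0.39 ± 0.04, limma adjusted p = 0.000117), and Rbm15, which recruits the methylase, changed by −0.45 ± 0.065 (limma adjusted p = 0.000632). Fto, a demethylase, rose by 0.20 ± 0.05 (limma adjusted p = 0.0124), a call absent from the authors' deposited table (adjusted p = 0.136). Mettl14, a subunit of the methylase, rose by 0.23 ± 0.08 (limma adjusted p = 0.0391), a call that ended without exosome replicate 2 (limma adjusted p = 0.125), exosome replicate 3 (0.109) or PBS replicate 3 (0.111) and with median of ratios scaling (0.058). The count that rose was 1 without any 1 of these 3 libraries.

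Other high mobility group genes encode proteins that bind DNA or nucleosomes without the AT hooks of the HMGA proteins. Of 8 listed 7 were tested, of which 0 fell, 2 rose and 5 did not pass, with a median of 0.19 (by unadjusted limma p under 0.05, and in the authors' deposited table, 0 of 7 fell as well). Among all tested genes 18.4% were lowered and 25.4% raised. Hmgb1, an abundant chromatin protein, was at 19.5 ± 0.381 FPKM with exosomes and 16.7 ± 1.27 with PBS (0.21 ± 0.06, limma adjusted p = 0.016), a call that ended without exosome replicate 2 (limma adjusted p = 0.0565). Hmgn1, a nucleosome-binding protein, was at 210.2 ± 17.95 FPKM with exosomes and 180.3 ± 16.95 with PBS (0.22 ± 0.08, limma adjusted p = 0.0495), a call that ended in 9 of 14 other settings, among them without exosome replicates 2 or 3 (limma adjusted p = 0.0877 and 0.156) and without PBS replicates 1 or 3 (0.0725 and 0.135). The count that rose was 0 without exosome replicate 2, 1 without exosome replicate 3, PBS replicate 1 or PBS replicate 3, and 3 without exosome replicate 1 or PBS replicate 2.

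Genes reported to act downstream of HMGA2 in other systems were 10, of which 7 were tested. Of these 3 fell, 1 rose and 3 did not pass (median −0.16), beside 18.4% lowered and 25.4% raised among all tested genes. The list was not split by whether HMGA2 is reported to raise or to repress a gene. Its counts and median thus do not tell whether these genes followed Hmga2. Junb, an AP-1 subunit, fell to 11.7 ± 1.22 FPKM with exosomes, against 42.2 ± 3.27 with PBS (−1.77 ± 0.08, limma adjusted p = 6.90e-07). Snai1, a repressor linked to epithelial-mesenchymal transition, fell to 22.2 ± 0.947 FPKM with exosomes, against 45.9 ± 2.67 with PBS (−1.02 ± 0.06, limma adjusted p = 1.89e-06). Ercc1, a DNA repair nuclease subunit, changed by −0.28 ± 0.08 (limma adjusted p = 0.0184). The Ercc1 call was lost without exosome replicate 1 (limma adjusted p = 0.0699), exosome replicate 2 (0.0607), PBS replicate 1 (0.0729) or PBS replicate 2 (0.0555). It was also lost without the filter on low values (0.0568). Twist1 passed in the raised direction at 0.15 ± 0.05 (limma adjusted p = 0.0458), a call kept only without exosome replicate 3, with a pseudocount of 0.1, with at least 5 FPKM and with upper quartile scaling among the 14 other settings. Leaving out any library but exosome replicate 3 left 0 genes of this list raised. Ccna2, the S-phase cyclin, was at 19.3 ± 0.857 FPKM with exosomes and 21.8 ± 3.20 with PBS (limma adjusted p = 0.168, and 0.0254 without PBS replicate 3). Cdkn2a, a repressed target of HMGA2 in neural stem cells, was listed at 0 in every library, and so was Cdkn2b of the same list. No change of either gene could thus be seen, and why they were at 0 was not tested.

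Genes whose profile over the 6 libraries was most like that of Hmga2 were Nid1, Pfkl, Etv5, Cx3cl1 and Nr1d1, in that order. Likeness was the root mean square difference of log2(FPKM + 1) values centred on each gene's mean, at 0.0648 for Nid1, a basement membrane protein, 0.0711 for Pfkl, a phosphofructokinase of glycolysis, 0.0783 for Etv5, a factor induced by MAP kinase signalling, 0.1003 for Cx3cl1, a chemokine, and 0.102 for Nr1d1, a circadian repressor. Nid1 was at 110, 122 and 131 FPKM in exosome replicates 1 to 3, against 268, 252 and 244 FPKM in PBS replicates 1 to 3. As in Hmga2, exosome replicate 1 was the lowest and PBS replicate 1 the highest library. The log2 changes of the 5 genes ran from −1.07 to −0.87, and 4 of the 5 were also among the 5 most alike with a pseudocount of 0.1. A like order of libraries and a like change follow from how these genes were picked, so nothing is read from them.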

How the data were processed

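RNA came from the mirVana kit and went into stranded mRNA libraries (TruSeq) read as pairs on a HiSeq instrument, as the labels' protocols state. Tools listed without versions or roles in the submitters' processing notes are DESeq, HTSeq, StringTie, Cufflinks, HISAT2, Bowtie2, SAMtools and Trimmomatic, with mm9 as the build. The authors deposited FPKM per library (the column names read expression, so FPKM is an inference from the tools and the values). Per the file headers the table also holds the normalized count signal as a mean per group, a fold change (ratio) of the groups, and the authors' p-values and adjusted p-values.

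No libraries were identical, and 27 gene names turned into dates were repaired by Entrez identifier. Depth was estimated from the deposited count means of low genes, which were sums of whole multiples of 1 step per library in 100% of 2441 genes for exosomes and 100% of 2362 for PBS (tolerance 0.0001). Counts per library were not recovered, so no count model was fitted. Genes with at least 1 FPKM in 3 libraries were tested with limma 3.58.1 in R 4.3.3 on log2(FPKM + 1), with trend and robust estimation, two-sided, group as the only term, and Benjamini-Hochberg adjustment over 10274 genes. The test was checked on simulated data, where it called 34.8% of genes given a log2 change of 0.25 and 82.8% of those given 0.5. Far fewer genes were changed there than were called in these data. Genes that did not pass may thus have changed by a small amount.

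Seed matches and coordinates are from GENCODE M21 (GRCm38), not the authors' build, and 99.1% of tested genes had a UTR there. The alternatives tried were a pseudocount of 0.1, no filter, at least 5 FPKM, median of ratios and upper quartile scaling, neither trend nor robust estimation, each library left out, a replicate block, and the authors' comparison. The 7 genes and all lists were chosen with earlier results of these data known. Named are the 7 genes, per list up to 5 genes of smallest adjusted p past 0.05, 12 genes fixed by name, the 5 most like Hmga2, and genes said in the text to have been chosen after their values were seen. Some genes that this rule names are not reported here.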

Additional observations from a re-analysis of the deposited data

How the results depend on the processing

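The 7 genes were chosen on this comparison, so refits of the same values do not test them. Over the 14 other settings the log2 change ran from −1.08 to −0.89 for Hmga2, from −0.53 to −0.36 for Hmga1, from −0.34 to −0.18 for Igf2bp1, from −0.27 to −0.18 for Igf2bp2 and from −0.08 to −0.02 for Igf2bp3, and it was farthest from 0 in the authors' deposited comparison for Hmga1, Igf2bp1 and Igf2bp2. Median of ratios scaling moved the median of all genes to 0.005 and gave 2250 raised and 2276 lowered genes, against 2612 and 1889.

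Of 224 counts over 16 results and 14 settings, 183 lay within 1.5 times the main count. Without the filter, 2 other let-7 targets, 1 m6A gene, 1 high mobility group gene and 0 genes downstream of HMGA2 were raised. With at least 5 FPKM 1 m6A gene was lowered. With median of ratios scaling 1 let-7 processing gene, 1 m6A gene, 1 high mobility group gene and 0 genes downstream of HMGA2 were raised and 4 m6A genes lowered. With neither trend nor robust estimation 0 genes downstream of HMGA2 were raised. In the authors' deposited comparison, 2 other let-7 targets, 1 let-7 processing gene, 2 IGF2BP clients, 0 m6A genes, 1 high mobility group gene and 0 genes downstream of HMGA2 were raised. Leaving out 1 library at a time gave 1 to 2 raised other let-7 targets, 1 to 2 raised and 2 to 6 lowered let-7 processing genes, 1 to 2 raised m6A genes, 0 to 3 raised high mobility group genes and 0 to 1 raised gene downstream of HMGA2. The cause was not tested.

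Libraries with the same replicate number did not deviate together (correlations across genes of −0.12, −0.02 and −0.29), and no library correlated best with its own number, so the numbers were not taken as pairs. With the replicate number as a block 2288 genes were raised and 1626 lowered, and 1 let-7 processing gene, 2 IGF2BP clients, 1 m6A gene, 1 high mobility group gene and 0 genes downstream of HMGA2 were raised. Lin28b, left out by the filter on low values, had a log2 change of 0.02 without it.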
